A study of Rattus norvegicus with 25 samples.

Results

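Neurexins and neuroligins are cell adhesion proteins that face each other across the synapse, and 5 of their genes were measured in the striatum of adolescent rats: Nrxn2, Nrxn3, Nlgn1, Nlgn2 and Nlgn3. They were chosen by symbol, as every probe set whose annotation gave exactly 1 of these names, which found 6 probe sets among 29214 on the array. Nrxn2 had 2 of them (probe sets 10713419 and 10728179) and the other genes 1 each, so that 5 of 14506 genes with a symbol are described. RNA came from whole striatum of male Lister Hooded rats aged PND 35 to 42 and was hybridised to Affymetrix rat gene 1.0st arrays, 1 rat an array. The 7 Nic rats were offspring of dams given nicotine bitartrate in the drinking water from before mating through pregnancy. The 10 Con-Pf rats were offspring of pair-fed dams, given only as much food as nicotine-treated dams ate and no nicotine, and the 8 Con rats were offspring of dams with free food and tap water. The comparison of Nic with Con-Pf therefore sets nicotine against a matched food intake. In the paper nicotine-treated dams also drank less than pair-fed dams, so nicotine and lower fluid intake cannot be told apart there. The comparison of Con-Pf with Con asks about pair-feeding, where limited food and any stress of pair-feeding cannot be told apart. The litter of each rat was not given. The methods list fewer pair-fed dams than the 10 Con-Pf rats, so some of these would share a dam. The p-values measure the spread between these rats, and siblings may be present in the other groups too.

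Neurexins sit in the presynaptic membrane and bind neuroligins, cerebellins, neurexophilins and LRRTM proteins in the cleft. Neuroligins sit opposite, where Nlgn1 is known mainly from excitatory synapses, Nlgn2 from inhibitory synapses and Nlgn3 from both kinds. In the striatum most neurons are GABAergic projection neurons that receive glutamatergic input from cortex and thalamus, so that both kinds of contact are dense there. Neurexin transcripts are heavily spliced and start from alternative promoters, and a single value per probe set does not separate these isoforms. The genes were of interest because earlier work on prenatal nicotine in the rat had pointed to cell adhesion systems in limbic brain regions. That cell adhesion work was in adolescent female rats. For the genes that earlier nicotine work had reported, taken as a whole, the paper found an overlap with its own results no greater than by chance.

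In the GRCr8 assembly of RefSeq, Nrxn2 lies at chr1:213155673-213271526, Nrxn3 at chr6:113372667-115004073, Nlgn1 at chr2:110184987-111110316, Nlgn2 at chr10:55042175-55056578 and Nlgn3 at chrX:70469251-70497380. Start-site sequence was at hand for 3 of the 5 genes, the neuroligins, which are shown because their levels varied in different directions over the arrays described further on. Each sequence runs 5′ to 3′ on the strand of the gene, in the GRCr8 build of RefSeq, with 250 bases before the annotated start and 50 after it, and CpG dinucleotides are in capitals. The Nlgn1 window is chr2:110930627-110930926 on the minus strand, that of Nlgn2 is chr10:55056529-55056828 on the minus strand, and that of Nlgn3 is chrX:70469228-70469527 on the plus strand. The start sites of Nlgn1 and Nlgn3 lie inside the span given for the gene, and that of Nlgn2 lies at its end.
Nlgn1: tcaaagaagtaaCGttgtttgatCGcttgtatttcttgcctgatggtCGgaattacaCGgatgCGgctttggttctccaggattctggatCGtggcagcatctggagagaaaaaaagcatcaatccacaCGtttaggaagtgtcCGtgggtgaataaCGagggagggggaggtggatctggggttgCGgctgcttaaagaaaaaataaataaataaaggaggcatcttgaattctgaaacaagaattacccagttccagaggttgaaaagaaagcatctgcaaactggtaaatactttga
Nlgn2: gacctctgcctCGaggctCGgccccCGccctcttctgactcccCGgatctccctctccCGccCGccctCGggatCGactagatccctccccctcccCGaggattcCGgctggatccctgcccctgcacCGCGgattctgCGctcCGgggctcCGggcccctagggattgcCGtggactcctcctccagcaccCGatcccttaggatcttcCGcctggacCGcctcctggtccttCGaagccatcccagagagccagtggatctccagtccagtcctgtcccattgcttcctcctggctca
Nlgn3: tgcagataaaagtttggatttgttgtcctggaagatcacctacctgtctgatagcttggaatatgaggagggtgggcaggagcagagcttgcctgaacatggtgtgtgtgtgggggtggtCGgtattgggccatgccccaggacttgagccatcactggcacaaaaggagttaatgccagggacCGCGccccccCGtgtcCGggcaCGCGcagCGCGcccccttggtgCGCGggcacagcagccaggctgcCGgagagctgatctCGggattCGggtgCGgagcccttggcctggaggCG
The Nlgn2 window held 20 CpG dinucleotides at 67.3% GC, the Nlgn3 window 16 at 61.7% GC and the Nlgn1 window 10 at 43.3% GC. Over 27457 start-site windows of this length the median was 7 CpG dinucleotides and 52.3% GC. Searched on both strands, none of the 3 windows held the cAMP response element TGACGTCA, found in 1.91% of all windows, or the EGR motif GCGNGGGCG, found in 5.29%. Nor did they hold the AP-1 motif TGANTCA, found in 7.33% of all windows, or the NR4A motif AAAGGTCA, found in 1.29%. The 4 motifs differ in their letters and were counted apart.

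All 6 probe sets passed the filter on low values, which kept the 14607 probe sets whose mean level was no lower than the median one. The values are RMA expression levels on the log2 scale, so that a difference of 1 is a doubling, and levels are compared only within a probe set. Of 10 markers of striatal projection neurons 8 passed the filter, among them Ppp1r1b, Drd1, Drd2, Adora2a and Penk. Between any 2 arrays the Pearson correlation over the kept probe sets was 0.967 to 0.997. On the first principal component (30.4% of the variance), Con 3 (score -25.2) and Con 5 (score -33.9) lay apart from the other arrays. The mean of 69 cytosolic ribosomal protein genes, relative to the mean of the 25 arrays, was -0.34 on Con 3 and -0.45 on Con 5, while the Nic arrays lay between -0.08 and 0.08 and the Con-Pf arrays between -0.11 and 0.12. Con-Pf 9 and 10 are titled Con-Pf but described as controls. The methods give the numbers of Con and Con-Pf arrays once in the reverse of the titles, while the animals they list less the arrays they removed match the titles. The 2 arrays were kept as Con-Pf, and some of the values with them counted as Con stand beside each comparison.

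Nrxn2, an adhesion receptor of the presynaptic membrane, was measured at nearly the same level in the 3 groups by probe set 10713419. Its log2 level had a lowest value of 10.26, a median of 10.41 and a highest of 10.51 in Nic rats, against 10.16, 10.37 and 10.40 in Con-Pf rats and 10.20, 10.42 and 10.53 in Con rats. The means were 10.40 ± 0.09 in Nic rats (SD, n = 7), 10.34 ± 0.07 in Con-Pf rats (SD, n = 10) and 10.41 ± 0.12 in Con rats (SD, n = 8). The 3 ranges overlapped, and the highest Con-Pf value lay below the Nic and Con medians. The second probe set for Nrxn2, 10728179, ran 8.05, 8.28 and 8.37 in Nic rats, 8.04, 8.27 and 8.62 in Con-Pf rats and 8.25, 8.30 and 8.63 in Con rats as lowest, median and highest log2 levels. Its means were 8.26 ± 0.10 in Nic rats, 8.30 ± 0.17 in Con-Pf rats and 8.37 ± 0.15 in Con rats. The 3 medians of this probe set differed by less than its spread, and its highest values came from 1 Con-Pf and 2 Con rats.

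Nrxn3, the other neurexin measured, had lowest, median and highest log2 levels of 11.01, 11.11 and 11.13 in Nic rats. The same 3 values were 10.85, 11.07 and 11.17 in Con-Pf rats and 10.99, 11.16 and 11.31 in Con rats. Its means were 11.09 ± 0.05 in Nic rats, 11.06 ± 0.09 in Con-Pf rats and 11.16 ± 0.10 in Con rats. The Nic rats were close together and lay wholly within the range of both other groups. The highest Con values were those of Con 3 (11.31) and Con 5 (11.26), the 2 arrays that stood apart.

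Nlgn1, the neuroligin of excitatory synapses, showed the widest spread within Con. Its lowest, median and highest log2 levels were 10.35, 10.48 and 10.52 in Nic rats, 10.22, 10.40 and 10.57 in Con-Pf rats and 10.29, 10.50 and 10.90 in Con rats. The means were 10.46 ± 0.06 in Nic rats, 10.40 ± 0.10 in Con-Pf rats and 10.58 ± 0.21 in Con rats. Con 3 (10.89) and Con 5 (10.90) were the 2 highest of the 25 rats, and without them the Con mean was 10.47 ± 0.10 (SD, n = 6), with a highest value of 10.60. The Nic rats lay within the range of the 6 other Con rats.

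Nlgn2, which organises inhibitory synapses with gephyrin, had lowest, median and highest log2 levels of 10.52, 10.59 and 10.80 in Nic rats, 10.53, 10.57 and 10.70 in Con-Pf rats and 10.36, 10.52 and 10.73 in Con rats. Its means were 10.62 ± 0.10 in Nic rats, 10.58 ± 0.05 in Con-Pf rats and 10.55 ± 0.14 in Con rats. For this gene Con 3 (10.36) and Con 5 (10.43) were the 2 lowest of the 25 rats, the opposite of Nlgn1. Nlgn3, an X-linked neuroligin found at both kinds of synapse, ran 11.30, 11.36 and 11.48 in Nic rats, 11.25, 11.35 and 11.40 in Con-Pf rats and 11.29, 11.38 and 11.56 in Con rats. Its means were 11.36 ± 0.06 in Nic rats, 11.34 ± 0.05 in Con-Pf rats and 11.40 ± 0.11 in Con rats. Con 3 (11.56) and Con 5 (11.53) were again the 2 highest, and without them the Con mean was 11.35 ± 0.06. The within-group SD of Nlgn3 over the 3 groups, 0.0747, was smaller than that of all but 9.95% of the kept probe sets, whose median SD was 0.121, and that of Nlgn1 was 0.141.

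**Figure D1:**
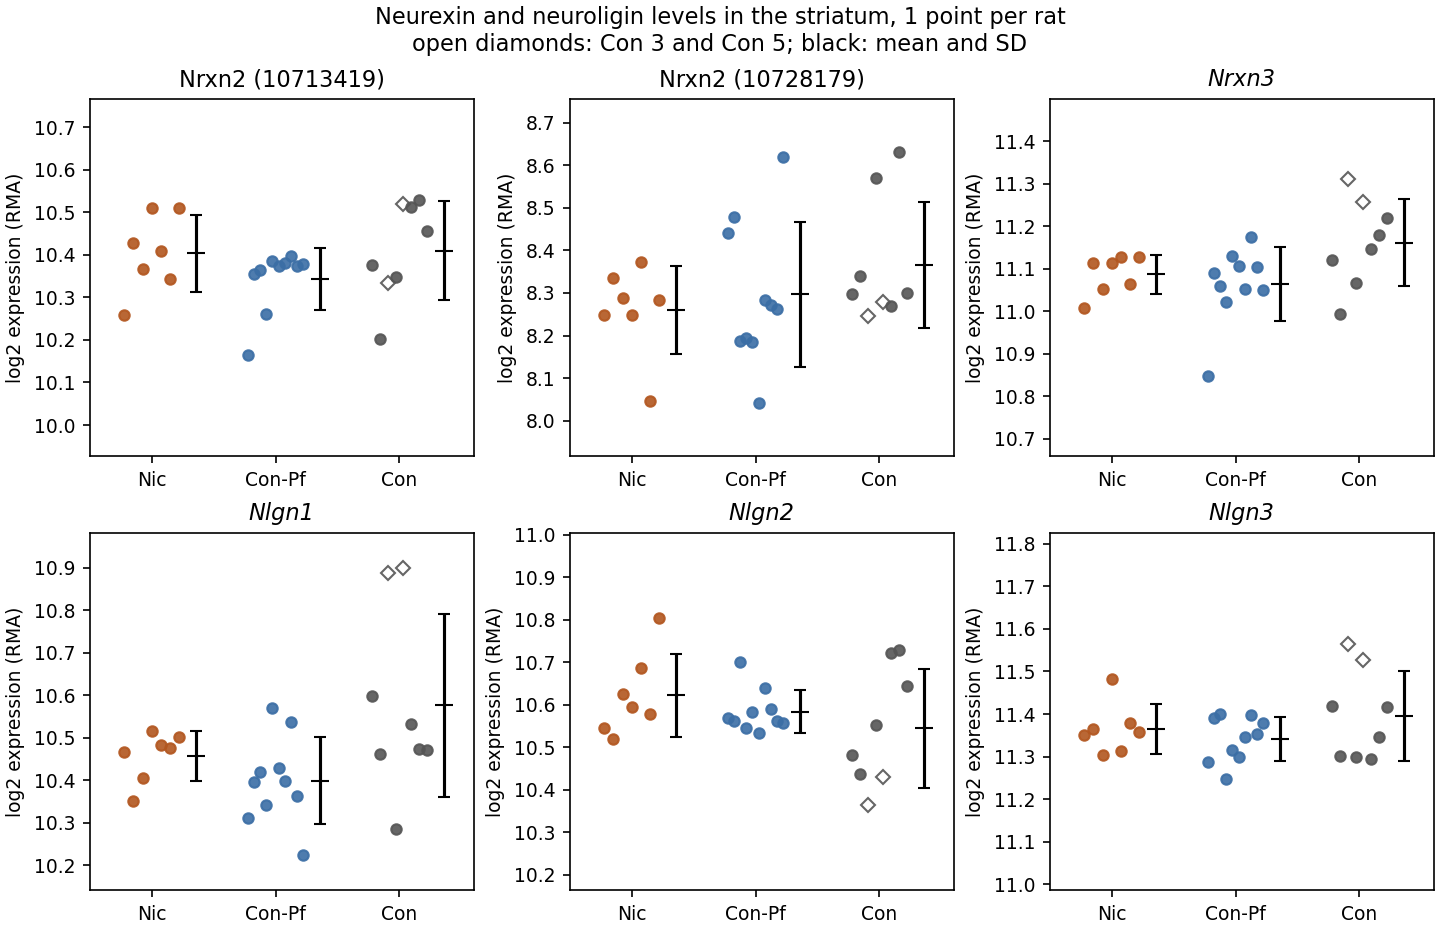
Log2 expression (RMA) of each neurexin and neuroligin probe set on the vertical axis in 7 Nic, 10 Con-Pf and 8 Con rats, with 1 point per rat, Con 3 and Con 5 as open diamonds, and the mean and SD in black; each panel has its own axis of the same length. The groups overlap in every panel, and Con 3 and Con 5 are the 2 highest rats for Nlgn1, Nlgn3 and Nrxn3 and the 2 lowest for Nlgn2.

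Between Nic and Con rats none of the neurexins and neuroligins passed the test. In the limma fit over all kept probe sets 0 of the 6 passed an adjusted p of 0.05, and 0 had an unadjusted p under 0.05, where 0% of 14607 probe sets passed the first threshold and 16.2% the second. Tests of each probe set alone, with unequal and with pooled variances and adjusted in the same way, called 0 of the 6 either way. The largest difference in size was that of Nlgn1, whose log2 level was lower in Nic rats (-0.12, SE 0.070, 95% interval -0.26 to 0.03, adjusted p = 0.378). Nrxn2 differed by -0.01 (SE 0.050, adjusted p = 0.955) for probe set 10713419 and by -0.11 (SE 0.074, adjusted p = 0.437) for probe set 10728179. Nrxn3 differed by -0.07 (SE 0.046, adjusted p = 0.392). The difference of Nlgn2 was 0.08 (SE 0.052, adjusted p = 0.431) and that of Nlgn3 was -0.03 (SE 0.043, adjusted p = 0.696). Over the 6 probe sets the median log2 difference was -0.05, against 0.02 over all probe sets kept. Without Con 3 and Con 5 the largest was that of Nrxn2 by probe set 10728179, at -0.14 (unadjusted p = 0.0875, adjusted p = 0.953). The other Nrxn2 probe set was then at -0.00, Nlgn1 at -0.01, Nrxn3 at -0.03, Nlgn2 at 0.03 and Nlgn3 at 0.02, where the sign of Nlgn3 turned, and 0 of the 6 had an unadjusted p under 0.05, where 4.65% of all kept probe sets did. With Con-Pf 9 and 10 counted as Con, Nlgn1 differed by -0.06.

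Between Nic and Con-Pf rats, the comparison at a matched food intake, the 6 differences lay between -0.04 and 0.06 on the log2 scale. Nrxn2 differed by 0.06 for probe set 10713419 and by -0.04 for probe set 10728179, Nlgn1 by 0.06, Nlgn2 by 0.04, and Nrxn3 and Nlgn3 by 0.02 each. In limma 0 of the 6 were called (adjusted p = 0.999 for each), 0 had an unadjusted p under 0.05, and the tests of each probe set alone called 0 after adjustment. Of all kept probe sets 0.185% were called in this comparison and 4.36% had an unadjusted p under 0.05. The median of the 6 differences was 0.03, against 0.01 over all probe sets kept. Without Con-Pf 9 and 10, as when they are counted as Con, Nlgn1 differed by 0.03 and Nrxn2 by probe set 10728179 by -4.57e-05.

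Between Con-Pf and Con rats, Nlgn1 and Nrxn3 had the lowest p-values of the family, and neither passed the adjustment. The log2 level of Nlgn1 was lower in Con-Pf rats by an estimate of -0.18 (SE 0.065, 95% interval -0.31 to -0.04, unadjusted p = 0.0109, adjusted p = 0.134 in limma). The estimate for Nrxn3 was -0.10 (SE 0.042, 95% interval -0.18 to -0.01, unadjusted p = 0.0297, adjusted p = 0.186). Of all kept probe sets 8.11% had a smaller p than Nlgn1. In all, 0 of the 6 were called in limma, where 1.26% of the kept probe sets were, and 2 of the 6 had an unadjusted p under 0.05, where 22% did. The tests of each probe set alone called 0 after adjustment. The other 4 differences were -0.07 for each Nrxn2 probe set (adjusted p = 0.384 for 10713419 and 0.539 for 10728179), 0.04 for Nlgn2 (adjusted p = 0.640) and -0.05 for Nlgn3 (adjusted p = 0.399). Their median over the 6 was -0.07, against 0.02 over all probe sets kept. Both comparisons with Con use the same 8 Con arrays.

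The differences of Nlgn1 and Nrxn3 between Con-Pf and Con were smaller without Con 3 and Con 5. That of Nlgn1 was then -0.07 (unadjusted p = 0.151, adjusted p = 0.791 in limma) and that of Nrxn3 -0.06 (unadjusted p = 0.183, adjusted p = 0.811). Without the 2 arrays 0.582% of the kept probe sets were called and 8.1% had an unadjusted p under 0.05, against 0 of the 6 for both. With Con-Pf 9 and 10 counted as Con, the Nlgn1 difference was -0.09 (unadjusted p = 0.198) and the Nrxn3 difference -0.08 (unadjusted p = 0.0645), while Nrxn2 by probe set 10728179 differed by -0.12 (unadjusted p = 0.0725). The part of the 2 arrays in the difference was not tested.

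Over the 6 probe sets and 3 comparisons, the 95% intervals of the 18 log2 differences lay between -0.31 and 0.20, or between 0.807-fold and 1.15-fold, and 16 of the 18 held 0. Without Con 3 and Con 5 all 18 held 0. In bulk tissue a smaller share of the cells that make a transcript and less of it per cell cannot be told apart. The groups of all 6 probe sets overlapped in every comparison, and of all kept probe sets 0.0274% did not overlap between Nic and Con, 0.0822% between Nic and Con-Pf and 0.274% between Con-Pf and Con.

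**Figure D2:**
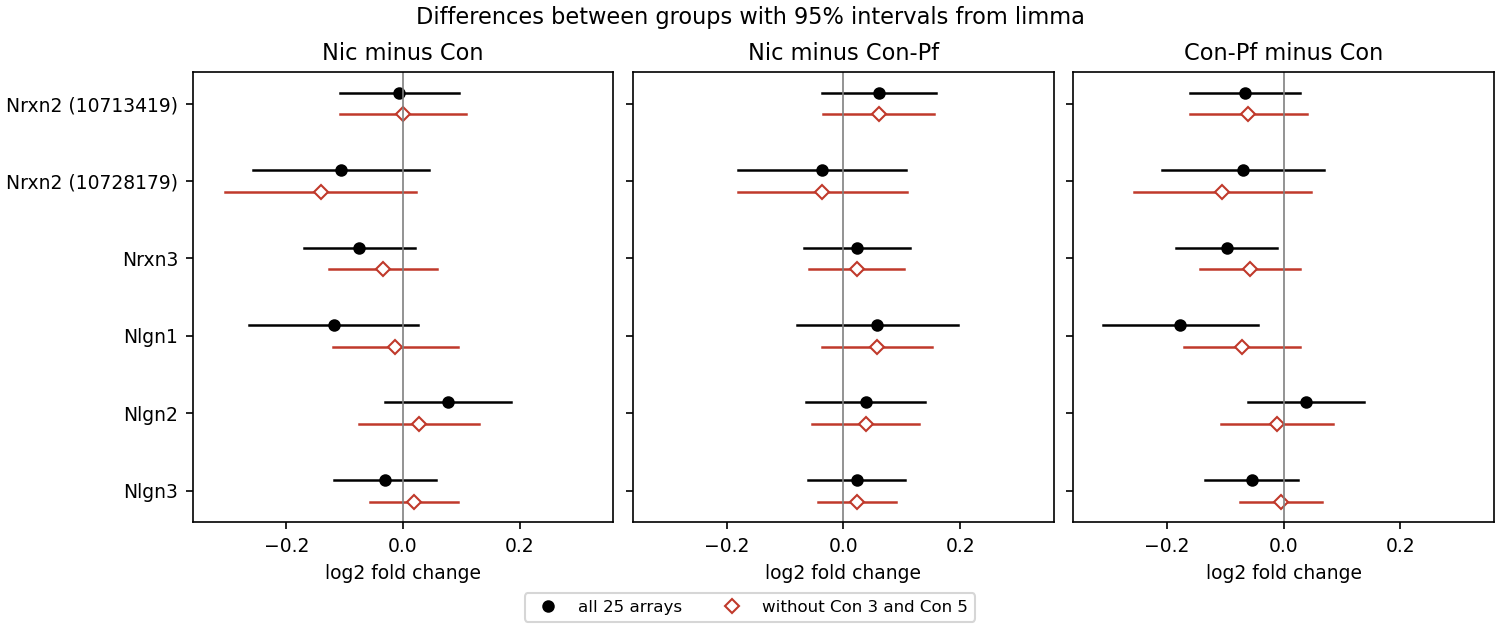
Log2 fold changes on the horizontal axis, with 95% intervals from limma, for the 6 neurexin and neuroligin probe sets in the 3 comparisons, with all 25 arrays (black) and without Con 3 and Con 5 (red). With all arrays only the Nlgn1 and Nrxn3 intervals in Con-Pf minus Con leave out 0, and without the 2 arrays every interval holds 0.

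Across the 25 arrays Nlgn2 varied in the same direction as the ribosomal protein genes, and Nlgn1 and Nlgn3 in the opposite direction. After the group means were taken out, the Pearson correlation with the mean of the 69 ribosomal genes was -0.82 for Nlgn3, -0.73 for Nlgn1, -0.43 for Nrxn3 and 0.60 for Nlgn2 (n = 25 arrays). It was -0.05 for Nrxn2 by probe set 10713419 and 0.19 by probe set 10728179. Without Con 3 and Con 5 it was -0.64 for Nlgn3, -0.27 for Nlgn1, -0.06 for Nrxn3 and 0.39 for Nlgn2 (n = 23). All values of an array share its RNA and its normalisation, and these correlations are a description. Of the 4 genes Nlgn3 kept the strongest correlation among the other 23 arrays, and that of Nrxn3 was then near 0.

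**Figure D3:**
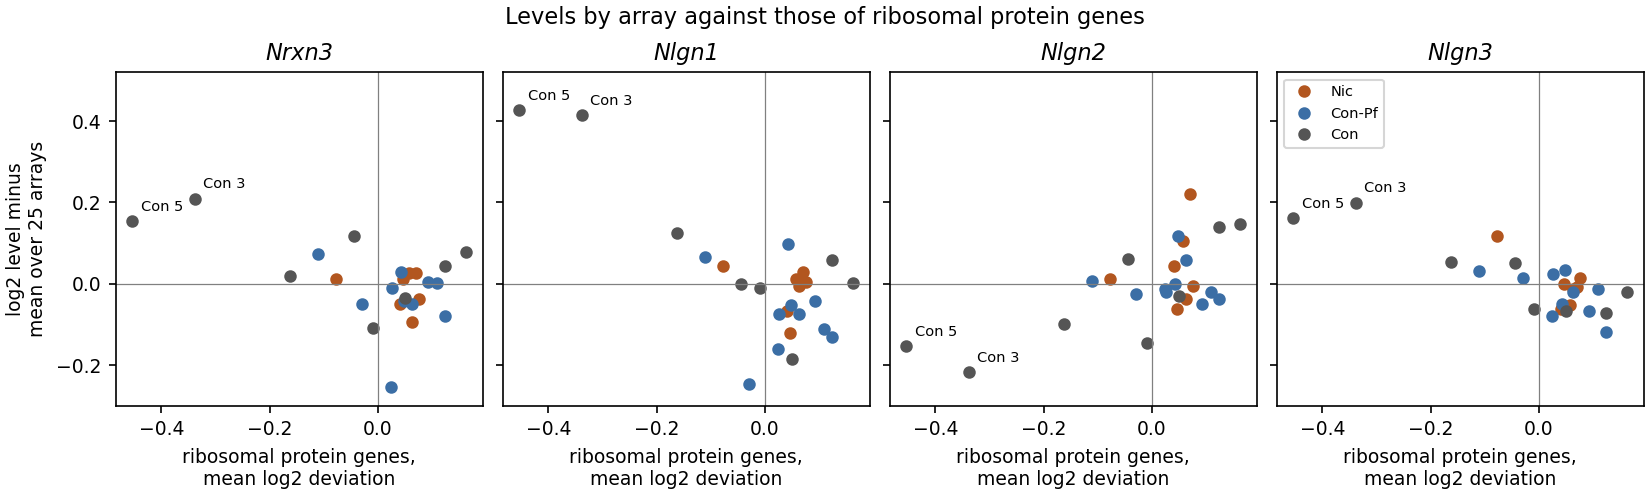
Log2 level of Nrxn3, Nlgn1, Nlgn2 and Nlgn3 relative to the mean of the 25 arrays (vertical axis) against the mean of 69 ribosomal protein genes on the same arrays (horizontal axis, log2), coloured by group. Con 3 and Con 5 lie far to the left in all 4 panels, high for Nrxn3, Nlgn1 and Nlgn3 and low for Nlgn2.

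Among rats of a group, the neurexin and neuroligin genes varied together in part. The closest of the 15 pairs was Nrxn2 (probe set 10713419) with Nrxn3, whose deviations from the group means correlated at 0.69 over 25 arrays and at 0.84 without Con 3 and Con 5. Nrxn2 by the same probe set correlated with Nlgn2 at 0.52, and at 0.65 without the 2 arrays. Nlgn1 and Nlgn3 correlated at 0.67 over the 25 arrays and at 0.29 without the 2. Nlgn2 correlated at -0.31 with Nlgn1 and -0.36 with Nlgn3 over the 25 arrays, and at 0.19 and 0.01 without the 2, so that the sign turned without them. Nrxn3 correlated at 0.64 with Nlgn1 and at 0.62 with Nlgn3, and at 0.47 and 0.43 without the 2 arrays. The 2 probe sets for Nrxn2 did not track each other (0.03, and 0.04 without the 2 arrays), and probe set 10728179 correlated with Nlgn1 at -0.54, or -0.57 without them. The gene is therefore described by each probe set apart.

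**Figure D4:**
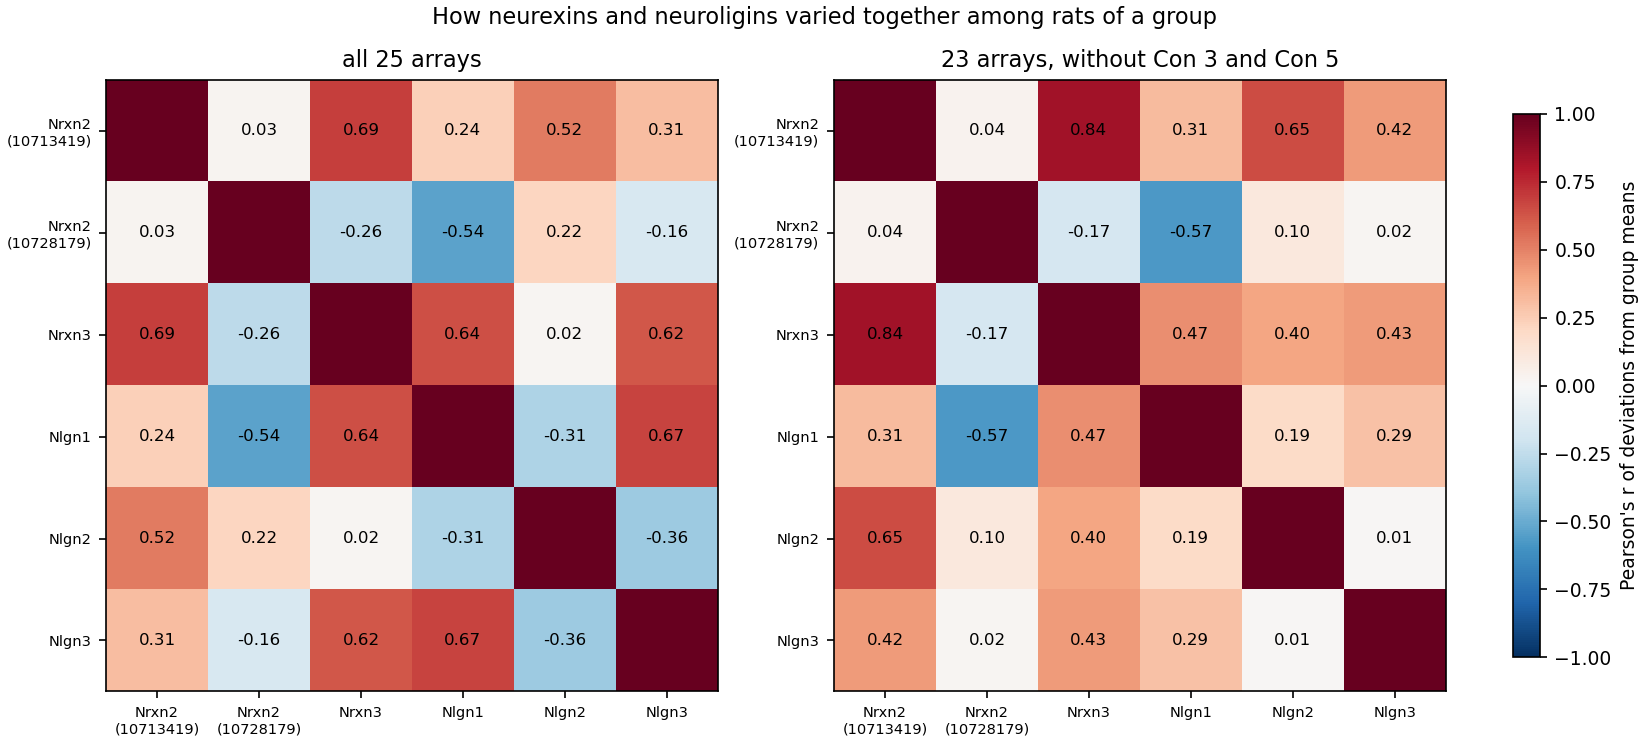
Pearson correlations of deviations from group means between the 6 neurexin and neuroligin probe sets, over all 25 arrays (left) and over 23 arrays without Con 3 and Con 5 (right), on a colour scale from -1 to 1. The pair of Nrxn2 (10713419) and Nrxn3 is at 0.69 and 0.84, and the pair of Nlgn1 and Nlgn3 at 0.67 and 0.29.

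For each gene, the 3 named genes most like it over the 25 arrays were taken by the same correlation among kept probe sets with 1 symbol. Nrxn3 was closest to Clstn3, which codes for a calsyntenin, a postsynaptic partner of neurexins (0.86), to the adhesion gene L1cam (0.85) and to the monocarboxylate transporter gene Slc16a7 (0.82), and these correlations were 0.84, 0.81 and 0.75 without Con 3 and Con 5. Nlgn1 was closest to the AMPA receptor subunit gene Gria3 (0.92), Slc35b4 (0.91) and Zfp354c (0.91), with 0.79, 0.77 and 0.76 without the 2 arrays. Nlgn3 was closest to Wsb2, Mrgpre and Tti1 (0.85 each, and 0.75, 0.69 and 0.72 without the 2 arrays). Nlgn2 was closest to the transcription factor gene Erg (0.84), Ankrd34a (0.81) and the transcription factor gene Gli3 (0.80), with 0.79, 0.72 and 0.72 without the 2 arrays. Nrxn2 was closest to Klhl29 (0.86), Nup210 (0.84) and Scap (0.83) by probe set 10713419, and to Col1a1, Rb1cc1 and Otos (0.76 each) by probe set 10728179. No gene was named for more than 1 probe set of the family. The closest genes were in part others without Con 3 and Con 5. With the member itself counted, Gria3, Slc35b4 and Zfp354c then ranked 9, 17 and 26 for Nlgn1. Slc16a7 ranked 38 for Nrxn3 and Mrgpre 23 for Nlgn3, while Nup210, Col1a1 and Erg ranked 2, next to the member itself.

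Genes that work with neurexins and neuroligins were read from 8 lists, and 64 of their 86 genes were measured. Here and for the cell type markers, a gene counts as measured where a probe set with its symbol alone passed the filter. The other listed genes had no such probe set or only ones that the filter removed. Between Nic and Con 0 of the 64 were called in limma and 9 had an unadjusted p under 0.05, where 0% and 16.2% of all kept probe sets did. Between Nic and Con-Pf 0 were called and 4 had one, where 0.185% and 4.36% did. Between Con-Pf and Con 1 was called, higher in Con-Pf, and 18 had an unadjusted p under 0.05, where 1.26% and 22% of all kept probe sets did. The median log2 difference over the 64 was -0.00 for Nic minus Con, 0.02 for Nic minus Con-Pf and -0.01 for Con-Pf minus Con. The gene called was Lrrc4, for the postsynaptic netrin-G ligand 2, in a list of other synapse organizers. Its mean log2 level was 9.58 ± 0.07 in Nic rats, 9.61 ± 0.07 in Con-Pf rats and 9.42 ± 0.10 in Con rats. Lrrc4 rose by 0.18 in Con-Pf against Con (SE 0.041, adjusted p = 0.0186), and the Nic minus Con difference was 0.16 (SE 0.045, adjusted p = 0.268). The Con-Pf call was lost without Con 3 and Con 5 (0.17, adjusted p = 0.0936) and with Con-Pf 9 and 10 counted as Con (0.15, adjusted p = 0.280).

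On the presynaptic side, 8 of 10 listed genes were measured and none was called in any comparison. Lin7c and Lin7a, for scaffold proteins that join the neurexin-binding kinase CASK, had log2 differences of 0.22 (adjusted p = 0.268) and 0.13 (adjusted p = 0.268) in Nic minus Con, and Lin7a one of 0.14 (adjusted p = 0.104) in Con-Pf minus Con. Without Con 3 and Con 5 the Lin7c difference was 0.12. Of the secreted neurexin ligands, 6 of 9 were measured and none was called. Their median log2 difference was 0.13 for Nic minus Con, 0.16 for Nic minus Con-Pf and -0.03 for Con-Pf minus Con. Over all kept probe sets these medians were 0.02, 0.01 and 0.02. All 6 were higher in Nic than in Con-Pf rats, as were 55.9% of all kept probe sets. Nxph4, a neurexophilin, had mean log2 levels of 10.29 ± 0.21 in Nic rats, 10.06 ± 0.14 in Con-Pf rats and 10.30 ± 0.25 in Con rats. Its difference was 0.23 for Nic minus Con-Pf (SE 0.093, adjusted p = 0.943) and -0.24 for Con-Pf minus Con (SE 0.090, adjusted p = 0.139), where leaving out Con 6 gave -0.31 (adjusted p = 0.0488). Nxph3 had mean log2 levels of 7.18 ± 0.47 in Nic rats and 6.88 ± 0.09 in Con-Pf rats, a difference of 0.30 (SE 0.14, adjusted p = 0.999) that was 0.17 without Nic 2. Cbln4, a cerebellin, differed by 0.22 for Nic minus Con (SE 0.077, adjusted p = 0.268).

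Among the other postsynaptic ligands of neurexins and their relatives, 9 of 13 were measured and none was called. Adgrl3, a latrophilin, differed by -0.14 and Grid1, a delta glutamate receptor that cerebellins bridge to neurexins, by -0.13 in Con-Pf minus Con (adjusted p = 0.182 each), and without Con 3 and Con 5 these were -0.04 and -0.05. Of the neuroligin inhibitors and cleaving enzymes only Mdga1 and Mdga2 of 4 were measured, both MDGA proteins that bind neuroligins and block their contact with neurexins. In Con-Pf minus Con they differed by -0.09 (adjusted p = 0.262) and -0.04 (adjusted p = 0.724). None of 13 excitatory scaffold genes measured of 14 was called, with a median log2 difference of -0.01 for Nic minus Con, 0.02 for Nic minus Con-Pf and -0.01 for Con-Pf minus Con. Dlgap2 differed by -0.09 in Con-Pf minus Con (adjusted p = 0.210), or -0.03 without Con 3 and Con 5. Of the inhibitory scaffolds 3 of 7 were measured and none was called, and Lhfpl4, a partner of Nlgn2 at inhibitory synapses, differed by 0.10 in Nic minus Con (adjusted p = 0.291), or 0.06 without the 2 arrays. Splicing regulators of neurexin transcripts were measured for 5 of 6, none of them called, and Nova1 differed by 0.09 in Con-Pf minus Con (adjusted p = 0.163), or 0.05 without them.

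Markers of other cell types were read beside these values, and 0 of the 48 measured were called in limma in any comparison. An unadjusted p under 0.05 was found for 8 in Nic minus Con, 3 in Nic minus Con-Pf and 9 in Con-Pf minus Con. Of all kept probe sets 16.2%, 4.36% and 22% had one in these comparisons. The shares called were 0%, 0.185% and 1.26%. The 4 measured of 12 markers of cortical and thalamic neurons had a mean between -0.30 and 0.89 in Nic rats, -0.27 and 0.09 in Con-Pf rats and -0.31 and 0.65 in Con rats, each relative to the mean of the 25 arrays, with 0.65 on Con 5. Of these, Slc17a7 differed by 1.18 (unadjusted p = 0.00423, adjusted p = 0.576) and Cck by 0.53 (unadjusted p = 0.00467, adjusted p = 0.609) in Nic minus Con-Pf, both named after their values were seen. In that comparison 3 of the 4 were higher in Nic rats, not all, and the median difference of the 4 was 0.27. The 8 astrocyte markers stood at 0.18 on Con 3 and 0.16 on Con 5, and ran from -0.11 to 0.06 in Nic rats, -0.08 to 0.15 in Con-Pf rats and -0.16 to 0.18 in Con rats. The 8 measured markers of striatal projection neurons ran from -0.04 to 0.05 in Nic rats, -0.10 to 0.05 in Con-Pf rats and -0.12 to 0.08 in Con rats. The 7 measured of 8 microglia markers stood at -0.12 on Con 3 and -0.19 on Con 5, and ran from -0.06 to 0.05 in Nic rats, -0.10 to 0.08 in Con-Pf rats and -0.19 to 0.15 in Con rats. The 2 measured of 5 choroid plexus markers ran from -1.32 to 1.28 in Nic rats, -1.16 to 3.62 in Con-Pf rats and -1.27 to 3.10 in Con rats. Their part in the levels of the neurexins and neuroligins was not tested.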

How the data were processed

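Striatal RNA was measured on 25 arrays (7 Nic, 10 Con-Pf, 8 Con), grouped by title. The authors made the deposited log2 values with RMA, which corrects background, quantile normalises the arrays and summarises the probes of a set. The submitters' processing notes also name Affymetrix Expression Console 1.1. Hybridisation batches were balanced over samples per the methods, and no batch of a sample was given in the sources used here. Probe-level signal over background was not analysed here, and the number of arrays limits the precision. The qRT-PCR and DNA methylation measurements were not analysed here.

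The filter removed probe sets whose mean lay under quantile 0.5 of all means and kept 14607 of 29214. Gene names came from the platform annotation, which gave 1 symbol for 15310 probe sets, several for 323 and none for 13581, and 15279 of the 15310 were matched to RefSeq by Entrez ID. For a list gene measured more than once, the probe set of highest mean was read. All 3 groups were fitted together in limma 3.58.1 with moderated variances (R 4.3.3, with data.table at 1.17.8), and Benjamini-Hochberg adjustment ran over all kept probe sets (threshold 0.05). The fit was tested on simulated data, with values drawn apart for each probe set. That check lacks the variation that real arrays share, so it does not give the power of the tests reported here. Plots were made in matplotlib 3.10.9 under Python 3.11.15.

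The members and gene lists were chosen with earlier results of these data known. The genes named are all member probe sets, from each partner list those called or up to 2 with the smallest p, and for each member the 3 genes most like it. Of these list genes only some are given in the text.

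Alternatives were a t-test with unequal variances (the methods name Student's t-test), limma on the 2 compared groups, trend and robust moderation, array weights, no filter or a stricter one (quantile 0.75), further quantile normalisation, median centring, Con-Pf 9 and 10 left out or counted as Con, Con 3 and Con 5 left out, a replicate block, and leaving out each array. Replicates 1 to 7 with no block, and a t-test with pooled variances, were added after the data were seen.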

Additional observations from a re-analysis of the deposited data

Results flagged for a closer look

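In 3 of the 18 groups of neurexin and neuroligin values, 1 rat stood far from the others of its group, by a gap that Dixon's test puts above its 95% critical value. About 1 in 20 groups is expected to do so by chance, and over all 114 groups of named genes there were 11. Nrxn2 by probe set 10728179 was low in Nic 6, at a log2 level of 8.05 with the next at 8.25 (gap over range 0.616). Nrxn3 was low in Con-Pf 1, at 10.85 with the next at 11.02 (0.533). Nlgn3 was high in Nic 4, at 11.48 with the next at 11.38 (0.584).

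Among partner genes, the gap over range was 0.615 for Lin7c in Nic 4 and 0.603 for Lin7c in Con 5, both low. It was 0.638 for Adgrl2 in Nic 3, 0.58 for Lrrc4 in Nic 1, 0.65 for Gphn in Nic 1, 0.473 for Cask in Con-Pf 10 and 0.481 for Nxph3 in Con-Pf 4, all of them low. Shank3 was high in Nic 4 (0.651).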

How the results depend on the processing

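In each of the 3 comparisons, 0 of the 6 neurexin and neuroligin probe sets were called under all 40 settings, while the calls over all probe sets ranged over 0 to 0 in Nic minus Con, 5 to 55 in Nic minus Con-Pf and 27 to 480 in Con-Pf minus Con. The lowest adjusted p of a member was 0.0562, for Nlgn1 in Con-Pf minus Con without Con 4. Without 1 array at a time the Nlgn1 difference in that comparison ran from -0.22 to -0.13, with an unadjusted p under 0.05 in 25 of 25 fits, and for Nrxn3 in 21 of 25, all but those without Con 3, Con 5, Con 8 or Con-Pf 1. With unequal variances their p was 0.0587 (Nlgn1) and 0.0512 (Nrxn3), and with pooled variances 0.0342 and 0.0452. An unadjusted p also fell under 0.05 in Nic minus Con for Nlgn1 without Con 4 (p = 0.0233) and for Nrxn3 without Con 2 (p = 0.0369) and with further quantile normalisation (p = 0.0378), and in Con-Pf minus Con for Nrxn2 (10713419) without Con 2 (p = 0.0349). Of 249 values of the 6 member probe sets under the other alternatives 9 changed sign, and of 450 with 1 array left out 8 did, all of them small. The cause was not tested. In Nic minus Con, Nrxn2 (10713419) was 0.00825 with array weights, -0.0360 to 0.0179 with 1 array left out, and 0.000789 where Con-Pf 9 and 10 were taken as Con. Nlgn3 was 0.0183 in Nic minus Con and Nlgn2 was -0.0108 in Con-Pf minus Con without Con 3 and Con 5. In Nic minus Con-Pf, Nrxn2 (10728179) was 0.0170 with array weights, and with 1 array left out Nrxn3 ran from -0.00111 to 0.0359. Signs also turned for partner genes, which are not in these counts. Gphn ran from -0.00405 to 0.0464 in Nic minus Con-Pf with 1 array left out. Mdga2 in Con-Pf minus Con was 0.0544 with array weights, 0.0429 without Con 3 and Con 5, and -0.0741 to 0.00151 with 1 array left out. The Lrrc4 call in Con-Pf minus Con was also lost with unequal variances (adjusted p = 0.115), pooled variances (0.0502), limma on the 2 groups only (0.0598), no filter (0.0563) and median centring (0.0508). The stricter filter removed Nrxn2 (10728179) and gave it no value.

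Correlations between deviations of same-numbered rats were -0.208 to 0.341 for Nic and Con-Pf (median 0.109), -0.362 to 0.315 for Nic and Con (median -0.049) and 0.025 to 0.179 for Con-Pf and Con (median 0.105). They were over 0.1 in 4, 2 and 4 of 7 pairs, not in all. Rats of different numbers were not compared, so these values cannot tell whether the numbers pair the rats. No pairing was assumed. With the replicate number as a block over replicates 1 to 7, 0 members were called, Nrxn2 was 0.000441 in Nic minus Con (10713419) and 0.00143 in Nic minus Con-Pf (10728179), and Lrrc4 had an adjusted p of 0.0555. The same rats with no block, added after the data were seen, gave the same 0.000441 and 0.00143, and 0.0421 for Lrrc4.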
